A study of Arabidopsis thaliana with 9 samples.

Results

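The 10 genes described here encode the enzymes that make abscisic acid (ABA) in Arabidopsis thaliana, chosen by locus for their known role in the pathway. Earlier results of these data were known when they were chosen, so the choice was not blind to the measured values. They are ABA1, ABA4, NCED2, NCED3, NCED5, NCED6, NCED9, ABA2, AAO3 and ABA3. All 10 had a probe on the array, out of 25481 loci with a probe, and 7 of them were bright enough to be tested, out of 22806 genes tested.

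ABA is the plant hormone of water deficit and seed dormancy, and it is made from carotenoids. In the plastid, zeaxanthin is epoxidised to violaxanthin, from which neoxanthin is made. There 9-cis-epoxycarotenoid dioxygenases (NCED) cleave the 9-cis forms of both to xanthoxin, the step generally regarded as limiting. Xanthoxin is then oxidised in the cytosol to abscisic aldehyde and finally to ABA.

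RNA was measured in 4-week-old Columbia (Col-0) seedlings, root and shoot together, with 3 arrays in each of 3 groups. The first group received 150 mM NaCl and the second 10 μM ABA, both for 6 h, while the control received water under normal conditions over the same time. All groups were grown in the same potting mixture, and the ABA group was given the end product of the pathway itself. Harvested plants were pooled by treatment before 3 portions were taken, so the arrays of a group may differ less than single plants would, and the p-values measure only the spread between such portions.

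Each array was a one-colour Agilent oligo microarray, and all levels below are log2 signals after quantile normalization over the 9 arrays, so that a difference of 1 stands for a 2-fold change. Between 69.1% and 72.1% of the probes on an array were well above the local background, and no probe was saturated. The 3 NaCl arrays lay on 1 slide scanned 235 days before the others, and no slide held more than 1 group, so the effect of NaCl and that of the slide and scan cannot be told apart. The control arrays lay on 1 slide and the ABA arrays on 2 others, so the effect of ABA cannot be told apart from that of the slide either. Of 5 genes that ABA is known to induce, 5 rose with NaCl and 4 with ABA by the rule given below. Over all genes tested, 10.5% rose with NaCl and 0.943% with ABA by that rule. These 5 genes were listed with earlier results of these data known, so they are not an independent check of the treatments. With ABA the phosphatase gene HAI1 was 49.1-fold higher (log2 5.62 ± 0.39 SE, limma adjusted p = 0.00114).

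Among the ABA biosynthesis genes, NaCl raised NCED3 and NCED9, both of the cleavage step, and no tested gene of the pathway was called lower. A gene was called when its Benjamini-Hochberg adjusted p in the limma fit was under 0.05 and its fold change at least 2. By this rule 2 of the 7 tested genes were called in NaCl against control, both higher, where 23% of all genes tested were called and 10.5% were called higher. The median log2 fold change of the 7 genes was 0.72, against -0.074 over all genes tested. One of the 7, NCED9, passed the filter on dim signals only through the NaCl arrays, so its presence in this count and median is not independent of its difference.

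ABA treatment raised or lowered none of the 7 tested genes at the same threshold, where 1.53% of all genes tested were called. None of the 7 genes reached a 2-fold difference, with log2 fold changes between -0.68 and 0.80. The count was therefore also 0 at an unadjusted limma p under 0.05 with that fold threshold, and 0 by the methods' t-test. These 2 counts were fixed by the fold changes and add nothing about the p-values. Their median log2 fold change was 0.42, against -0.055 over all genes tested. The 3 ABA arrays nevertheless lay above the 3 control arrays for 4 of the 7 genes (ABA1, ABA4, AAO3 and ABA3), and below them for 0, while over all genes tested 11.1% had every ABA array above and 16.7% every ABA array below.

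In the direct comparison of ABA against NaCl, 2 of the 7 genes were called, where 20.3% of all genes tested were called. They were again NCED3 and NCED9, both lower in the ABA group, as were 9.53% of all genes tested. The NaCl and ABA comparisons share their control arrays, so their fold changes are given side by side below and were not correlated.

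**Figure D1:**
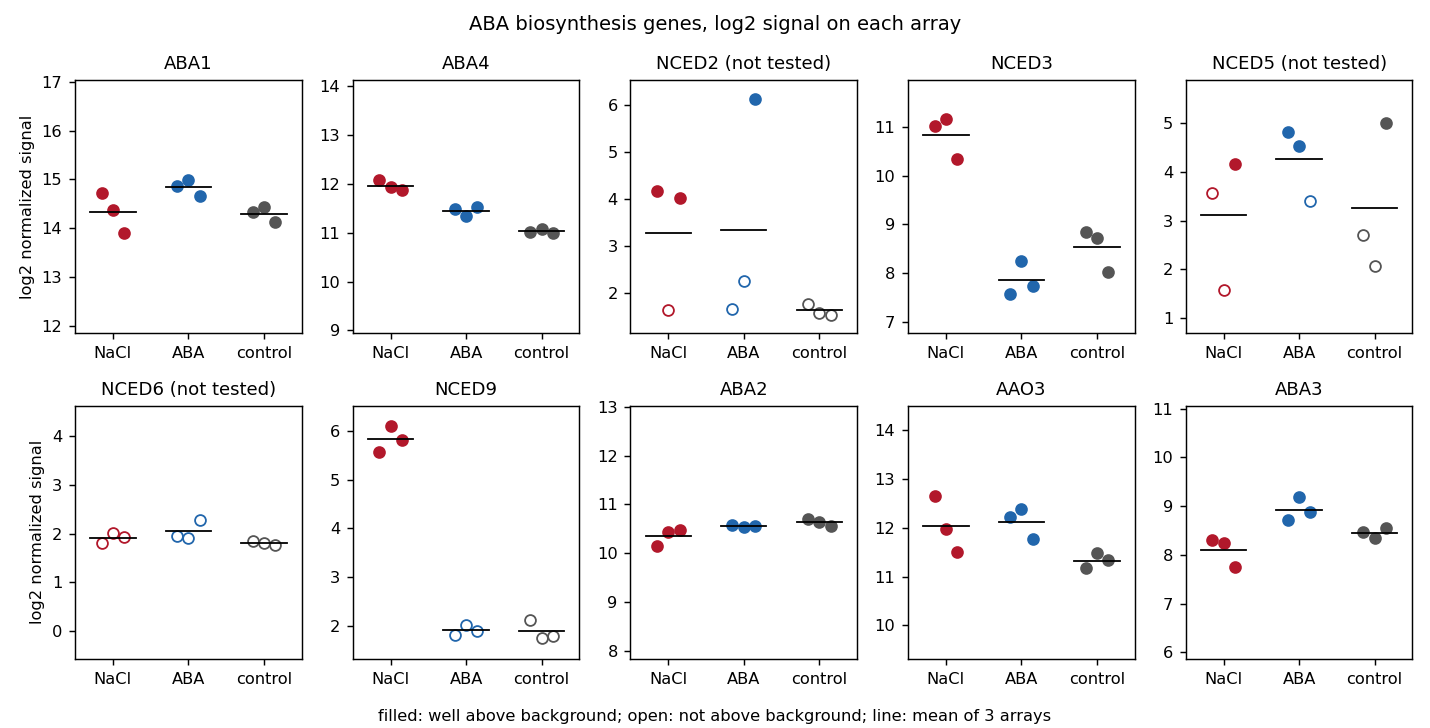
Log2 normalized signal (y axis) of each of the 10 genes on the 3 NaCl, 3 ABA and 3 control arrays, where a point is an array, a line the mean of 3 arrays, and an open point a signal not well above the background. The NaCl arrays stand apart for NCED3 (10.34 to 11.17) and for NCED9 (5.57 to 6.10), while NCED2, NCED5 and NCED6 are mostly open points.

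The NCED genes encode the dioxygenases that cleave 9-cis-violaxanthin and 9-cis-neoxanthin. NCED3 (AT3G14440, chromosome 3), the family member best known from dehydrated leaves and roots, had log2 signals of 11.02, 11.17 and 10.34 on the NaCl arrays, 7.56, 8.25 and 7.73 on the ABA arrays, and 8.84, 8.73 and 8.01 on the control arrays. Every NaCl array lay far above every array of the other groups, while ABA replicate 2 overlapped the control range and the other ABA arrays lay below it.

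NCED3 averaged 10.84 ± 0.44 with NaCl and 8.53 ± 0.45 in the control (SD, n = 3 each), a 4.97-fold increase (log2 2.31 ± 0.31 SE, 95% interval 1.59 to 3.04, limma adjusted p = 0.00132). With ABA the mean was 7.85 ± 0.36 (SD, n = 3), and the difference from the control did not pass the test (log2 -0.68, 95% interval -1.40 to 0.044, limma adjusted p = 0.324). The interval holds anything between a fall of more than 2-fold and no change. Set directly against NaCl, NCED3 was lower with ABA by 2.99 on the log2 scale (limma adjusted p = 0.000664). The NaCl and ABA arrays lay on different slides scanned on different days. A difference between the 2 treatments cannot be told apart from that of slide and scan here.

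The increase of NCED3 with NaCl was called in each of the 9 fits that left out 1 array, at log2 values between 2.05 and 2.58. In the authors' series table, whose NaCl columns are on a lower scale than the other 6, it was 1.39 and still called, while the methods' t-test, once adjusted, left it just outside the threshold (adjusted p = 0.0545). Over all alternatives the adjusted p of this difference ran from 8.13e-06 to that value.

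NCED9 (AT1G78390, chromosome 1), studied mostly for ABA synthesis in the seed, had log2 signals of 5.57, 6.10 and 5.81 on the NaCl arrays. It stood at 1.82, 2.01 and 1.90 on the ABA arrays and at 2.12, 1.75 and 1.80 on the control arrays. The gene was well above background on 3 of 3 NaCl arrays and on 0 of the 6 others, so only a limit can be given for its change. Measured against the lowest signal called above background on each array, NCED9 was at least 4.48-fold higher with NaCl than in the control. In the same way it was at least 3.86-fold lower with ABA than with NaCl. The fitted log2 differences, which use signals at the background, were 3.94 (limma adjusted p = 2.87e-05) and -3.91 (limma adjusted p = 4.38e-05). The p-values belong to these fitted differences and not to the limits. These p-values are not independent of the filter, which NCED9 passed through the NaCl arrays alone; with the filter removed they were 9.87e-05 and 0.000157.

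The fitted log2 difference of NCED9, 3.94 ± 0.18 (SE) in NaCl against control, depends on how the background is treated. With normexp background correction it was 0.74, under the 2-fold threshold, so the limit above does not hold there. Its limma adjusted p was 0.000908 with that correction, and the adjusted p lay between 1.12e-07 and 0.0281 over all alternatives. Leaving out any 1 array kept the call in 9 of 9 fits, with log2 values between 3.84 and 4.08. Between ABA and control no fold is given for NCED9, since both groups were at the background.

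NCED2 (AT4G18350, chromosome 4), a dioxygenase gene, had log2 signals of 4.17, 1.64 and 4.02 on the NaCl arrays, 1.65, 2.25 and 6.14 on the ABA arrays, and 1.76, 1.57 and 1.54 on the control arrays. It was well above background on 2 NaCl arrays, 1 ABA array and no control array, and the highest of its 9 values was that of ABA replicate 3 alone. Replicates of the NaCl group and of the ABA group differed by more than the group means did, while the control arrays lay close together at the background.

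NCED5 (AT1G30100, chromosome 1), of the same family, was above background on 1 NaCl array, 2 ABA arrays and 1 control array. Its log2 signals were 3.57, 1.58 and 4.17 with NaCl, 4.82, 4.53 and 3.40 with ABA, and 2.70, 2.07 and 4.99 in the control, so that the highest value was a control array. NCED6 (AT3G24220, chromosome 3), known mainly from the endosperm of the seed, was above background on no array, with log2 signals between 1.77 and 2.29. These 3 dioxygenase genes did not enter the tests. With the filter on dim signals removed, their adjusted p lay between 0.377 and 0.991 over the 3 comparisons.

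The samples were labelled whole plant, and some marker genes of root and leaf were called with NaCl beside the dioxygenase genes. Of 5 root markers, 3 to 5 were well above background on the NaCl arrays, 1 to 2 on the ABA arrays and 2 to 3 on the control arrays. Their summed linear signals ranged from 7306 to 31065 on the NaCl arrays, from 189 to 8351 on the ABA arrays and from 267 to 12873 on the control arrays. The 1 root marker called, the root hair gene COBL9, had log2 signals of 6.32, 5.36 and 7.26 with NaCl, 2.11, 1.61 and 2.36 with ABA, and 3.90, 2.77 and 2.14 in the control, where it was above background on 1 array. It entered the tests through the NaCl arrays alone. The other 2 root markers tested overlapped between NaCl and control and were not called (limma adjusted p = 0.111 and 0.275), and EXPA7 and EXPA18 were above background on 1 NaCl array each and on no other.

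Of 4 leaf markers, 2 were called lower with NaCl, RBCS1A (log2 -1.11) and the guard cell gene MYB60 (log2 -2.67). In this comparison 12.5% of all genes tested were called lower. The other 2 leaf markers also lay wholly below the control (log2 -0.68 and -0.88, limma adjusted p = 0.00626 and 0.0048), under the 2-fold threshold. Over all genes tested, 28.9% lay wholly below the control and 39.3% passed the adjusted test in either direction. The summed leaf signal ran from 310071 to 398494 with NaCl, from 617784 to 632398 with ABA and from 460115 to 642648 in the control. In whole seedlings a lower share of a cell type and less RNA per cell cannot be told apart, and the part of root and leaf content in the NCED3 and NCED9 results was not tested. Seed storage protein genes, markers of the organ in which NCED6 and NCED9 are best known, were above background at 0 of 5 on the NaCl arrays, 0 to 1 on the ABA arrays and 0 to 2 on the control arrays. Of 4 floral organ markers, 1 to 4 were above background on the NaCl arrays, 1 to 3 on the ABA arrays and 1 to 4 on the control arrays. NaCl replicate 3 stood apart, with a summed floral signal of 3920, against 56.6 and 64.7 on the other NaCl arrays, 47.4 to 77.6 on the ABA arrays and 36.5 to 210.4 on the control arrays. Without it the log2 difference in NaCl against control was 2.58 for NCED3 and 3.92 for NCED9, both still called.

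The steps that make violaxanthin and neoxanthin supply the substrate of the dioxygenases. ABA4 (AT1G67080, chromosome 1), needed to make neoxanthin, had log2 signals of 12.09, 11.94 and 11.87 with NaCl, 11.50, 11.34 and 11.52 with ABA, and 11.02, 11.09 and 10.99 in the control. The 3 groups did not overlap, with NaCl highest, ABA next and the control lowest.

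ABA4 differed by 1.91-fold between NaCl and control (log2 0.94 ± 0.12 SE, limma adjusted p = 0.00118). It passed the test, as 39.3% of all genes tested did, but stayed below the 2-fold threshold. ABA against control gave a log2 difference of 0.42 (95% interval 0.14 to 0.71, limma adjusted p = 0.132), and ABA against NaCl one of -0.51 (limma adjusted p = 0.0147), in a comparison where 35.6% of all genes tested passed the adjusted test.

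ABA1 (AT5G67030, chromosome 5), the zeaxanthin epoxidase that also runs the xanthophyll cycle of leaves, had log2 signals of 14.73, 14.38 and 13.91 with NaCl, 14.87, 14.98 and 14.67 with ABA, and 14.33, 14.43 and 14.14 in the control. The NaCl arrays spread over the whole control range and beyond it, while all ABA arrays lay above all control arrays.

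NaCl against control gave a log2 difference of 0.041 for ABA1 (95% interval -0.46 to 0.54, limma adjusted p = 0.894), whose sign turned to -0.12 with scaling to the 75th percentile and to -0.41 without scaling. The ABA difference of ABA1 was 0.54 (95% interval 0.041 to 1.04) and did not pass after adjustment (limma adjusted p = 0.255). A second ABA1 probe, above background on 9 of 9 arrays, gave mean differences of 0.082 for NaCl and 0.47 for ABA against control, close to those of the first.

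**Figure D2:**
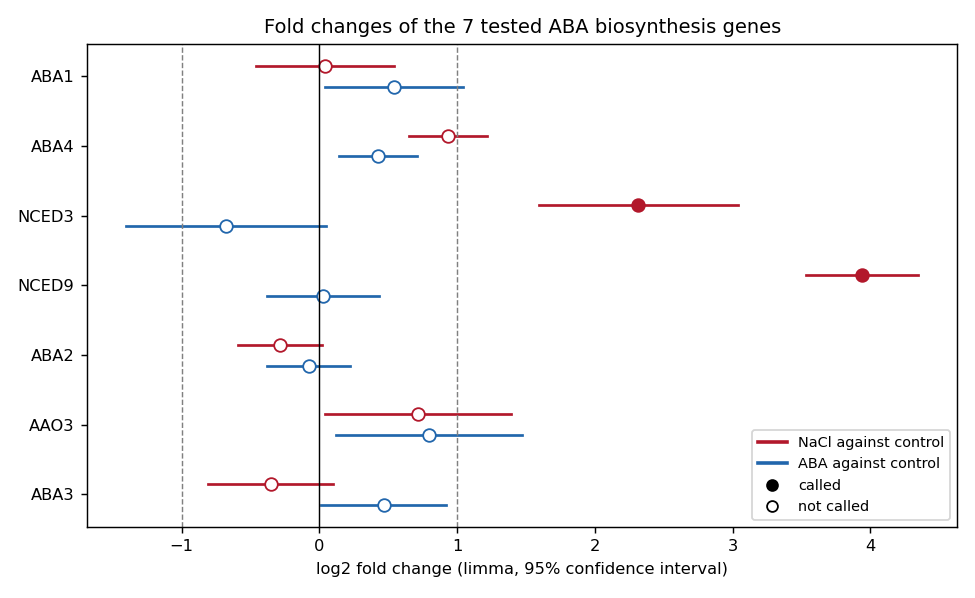
Log2 fold change (x axis, with the 95% interval of the limma fit as a line) of the 7 tested genes, with NaCl against control in red and ABA against control in blue, filled where called, and dashed lines at a 2-fold change. Only NCED3 (2.31) and NCED9 (3.94) with NaCl are filled, and the intervals of ABA4, AAO3, ABA1 and ABA3 with ABA lie above 0 without a call.

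ABA2 (AT1G52340, chromosome 1) encodes the short-chain dehydrogenase that turns xanthoxin into abscisic aldehyde. Its log2 signals were 10.15, 10.43 and 10.47 with NaCl, 10.58, 10.53 and 10.56 with ABA, and 10.70, 10.64 and 10.56 in the control. All NaCl arrays lay below the control arrays by a small margin, and the ABA arrays overlapped the lower edge of the control range.

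For ABA2 the log2 difference from the control was -0.29 with NaCl (95% interval -0.59 to 0.015, limma adjusted p = 0.116) and -0.077 with ABA (95% interval -0.38 to 0.22, limma adjusted p = 0.825). Both intervals lie within a 2-fold change in either direction.

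AAO3 (AT2G27150, chromosome 2), the aldehyde oxidase of the last step, had log2 signals of 12.65, 11.98 and 11.51 with NaCl, 12.22, 12.38 and 11.77 with ABA, and 11.17, 11.48 and 11.33 in the control. Every treated array of either kind was above every control array, though NaCl replicate 3 exceeded the highest control array by very little, and the NaCl and ABA ranges overlapped.

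AAO3 was 1.64-fold higher with NaCl (log2 0.72, 95% interval 0.042 to 1.39, limma adjusted p = 0.0849) and 1.74-fold higher with ABA (log2 0.80, 95% interval 0.12 to 1.47, limma adjusted p = 0.216) than in the control, neither past the threshold. Leaving out 1 array moved the adjusted p of the NaCl difference between 0.0239 and 0.214, with the fold below 2 in each of the 9 fits. ABA against NaCl gave 0.081 (95% interval -0.59 to 0.76). A second AAO3 probe was above background on 0 arrays and gave no further value.

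ABA3 (AT1G16540, chromosome 1) encodes the sulfurase that makes the molybdenum cofactor of AAO3 active. It had log2 signals of 8.31, 8.25 and 7.74 with NaCl, 8.71, 9.19 and 8.88 with ABA, and 8.47, 8.35 and 8.55 in the control. The groups did not overlap, with ABA highest, the control between and NaCl lowest.

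For ABA3 the ABA difference was 0.47 (95% interval 0.012 to 0.92, limma adjusted p = 0.28) and the NaCl difference -0.35 (95% interval -0.81 to 0.10, limma adjusted p = 0.186), neither past the threshold. Between the treatments the difference was larger, with ABA 1.77-fold higher than NaCl (log2 0.82 ± 0.20 SE, 95% interval 0.37 to 1.28, limma adjusted p = 0.0147), still below 2-fold. ABA3 was higher with ABA than with NaCl, while ABA4 was lower with ABA than with NaCl, both at adjusted p under 0.05 and under 2-fold.

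By the count of arrays, NaCl lay wholly above the control for 4 of the 7 genes (ABA4, NCED3, NCED9 and AAO3) and wholly below it for 2 (ABA2 and ABA3). Over all genes tested, 24% lay wholly above and 28.9% wholly below in the same comparison. With 3 arrays against 3, an exact permutation test of a single gene cannot give a two-sided p below 0.1.

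The steps before and beside ABA synthesis were described from gene lists of the pathway. Of 12 genes of carotenoid synthesis, 0 rose and 5 fell with NaCl, with a median of -0.78, where 12.5% of all genes tested were called lower. They were PSY, the phytoene synthase that opens the pathway (log2 -1.56), BCH2 (-1.44), LCYE (-2.12), LUT5 (-1.56) and LUT1 (-1.16). BCH2 is a beta-carotene hydroxylase on the branch towards zeaxanthin and ABA, and LCYE, LUT5 and LUT1 belong to the lutein branch. LUT1 was called in 22 of 28 alternatives, and its call was lost without NaCl replicate 1 or 2 and without control replicate 1. BCH2 was called in 26 of 28, and lost its call without NaCl replicate 1. PSY, LCYE and LUT5 were each called in 27 of 28. Of 7 genes of the MEP pathway, which supplies the isoprenoid units of carotenoids, MCT was called lower (log2 -1.95) and the other 6 were not called. All 7 had a negative log2 difference with NaCl, at a median of -0.72, and 5 lay wholly below the control. Over all genes tested the median was -0.074, and 28.9% lay wholly below the control. With ABA none of the genes of either list was called, at medians of 0.052 and -0.017.

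Among 4 other carotenoid cleavage dioxygenase genes, relatives of the NCED genes, 3 rose with NaCl, where 10.5% of all genes tested were called higher. They were CCD4, which degrades carotenoids (log2 1.60), and CCD7 (3.13) and CCD8 (3.32), both of strigolactone synthesis. CCD7 was above background on 1 control array, and its fitted difference was called in 25 of 27 alternatives and ran as low as 0.72. CCD8, with uneven control arrays (log2 signals of 5.49, 8.41 and 5.20), was called in 22 of 28 alternatives. Its call was lost without NaCl replicate 1 or 2 and without control replicate 1 or 3. Of 3 other aldehyde oxidase genes, relatives of AAO3, AAO4 rose with NaCl, above background on 3 NaCl arrays and on 0 control arrays. Measured against the lowest signal called above background on each array, AAO4 was at least 8.50-fold higher. Its fitted difference, which uses signals at the background, had a limma adjusted p of 0.0125. That p does not belong to the limit and is not independent of the filter, which AAO4 passed through the NaCl arrays alone. The gene was called in 27 of 27 alternatives. Its fitted log2 difference ran as low as 1.31 among them, so the limit does not hold under every alternative. None of 6 genes of molybdenum cofactor synthesis, which feeds ABA3 and AAO3, was called in either comparison, with log2 differences between -0.41 and 0.42 for NaCl and between -0.42 and 0.16 for ABA.

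The ABA 8'-hydroxylases break ABA down, opposite to the genes above. With NaCl 3 of 4 rose, CYP707A1 (log2 2.69), CYP707A2 (2.28) and CYP707A3 (2.81), and with ABA 1 of 4, CYP707A2 (2.81, 7.01-fold, limma adjusted p = 0.00222), where 0.943% of all genes tested were called higher with ABA. Over all genes tested, 10.5% were called higher with NaCl. CYP707A3 and NCED3 were both called higher with NaCl, not called with ABA, and called lower in ABA against NaCl (log2 -2.96 and -2.99). This was not particular to them: NCED9, CCD4, CCD8, AAO4, ATAF1 and the ABA-induced gene RAB18 had the same outcomes. In ABA against NaCl, 9.53% of all genes tested were called lower.

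Of 5 genes for transcription factors reported to act on NCED genes, 4 were tested, and 3 rose with NaCl and 0 with ABA. Over all genes tested, 10.5% were called higher with NaCl and 0.943% with ABA. ATAF1, a NAC factor that binds the NCED3 promoter, rose by 2.37 on the log2 scale, and MYB96 (1.14) and NGA1 (1.07) also rose. NGA1 was called in 20 of 28 alternatives, and MYB96 in 24 of 28. ATAF1 was the 1 gene of this list still called without control replicate 3. No called gene of these 7 lists or of the ABA-induced genes changed its direction under any alternative processing that was run.

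**Figure D3:**
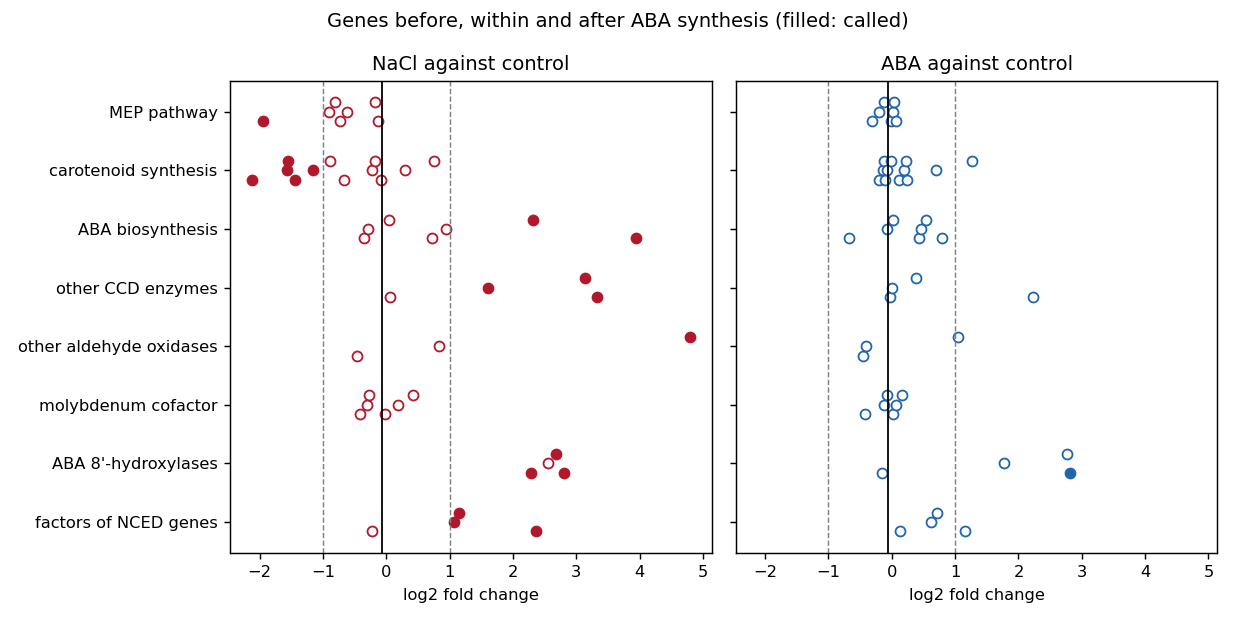
Log2 fold change (x axis) of each tested gene of the ABA biosynthesis genes and of 7 related lists (rows), for NaCl against control and ABA against control, filled where called, with dashed lines at a 2-fold change and a solid line at the median of all genes tested. With NaCl the filled points of carotenoid synthesis are all at the left (-1.16 to -2.12) and those of the cleavage and hydroxylase genes at the right, while with ABA CYP707A2 (2.81) is the filled point.

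Genes with profiles most like those of NCED3 and NCED9 were found by centring each gene on its own mean and taking the root mean square difference in log2 signal over the 9 arrays, among 20847 genes with a value on every array. For NCED3, whose own standard deviation over the arrays was 1.33, the nearest were AT2G25250 (0.30), AT5G24155 (0.34) and a probe without a matched locus (0.34). AT2G25250 was higher with NaCl by 2.38 and lower with ABA by 0.37 on the log2 scale. For NCED9, with a standard deviation of 1.86, the nearest were AT1G74450 (0.22), AT5G43620 (0.24) and AT1G18740 (0.26). The 9 arrays hold 3 groups, so this measure compares little more than the order of 3 levels.

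**Figure D4:**
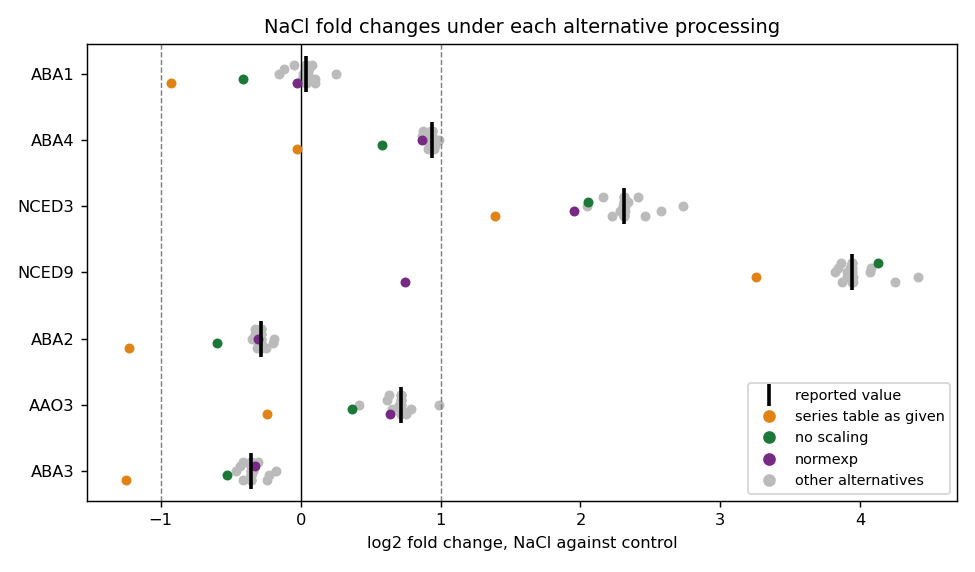
Log2 fold change in NaCl against control (x axis) of the 7 tested genes under each alternative processing (points), with the reported value as a vertical mark and dashed lines at a 2-fold change. NCED3 and NCED9 stay right of 0 throughout, NCED9 falls to 0.74 with normexp, and the series table as given moves every gene to the left (ABA1 to -0.93).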

How the data were processed

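The 9 one-colour arrays were read with Agilent Feature Extraction 10.7.3.1 per the file headers, and the intensity values deposited for each spot are background-subtracted and not normalized between arrays. The deposited files hold other marks of 0 or 1 per spot (above background, saturated, non-uniform, outlying). The authors also deposited a series table of log2 values, quantile-normalized with the NaCl columns (median 6.80) apart from the control and ABA columns (median 7.66), which was used as an alternative.

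Of 43603 non-control probes, 34483 were matched through their accessions to a locus of the RefSeq gene annotation (assembly TAIR10.1), and the others kept their array name. Log2 intensities were quantile-normalized over 9 arrays, and spots marked non-uniform or outlying were then left out. This order was chosen after both had been run: on control replicate 1 the marked spots were brighter (median 9.89) than all spots (6.99), and leaving them out first shifts the quantiles. Spots marked non-uniform numbered 205 to 223 on the NaCl arrays, 1 to 7 on the ABA arrays, and 992, 1141 and 1 on control replicates 1, 2 and 3. No log2 signal of the 7 tested genes was masked. A probe entered the tests when some group had it well above background on its 3 arrays, and the brightest such probe stood for the gene. A gene at the background in a whole group has a fold change given as a lower limit, against the lowest signal called above background on each array. Array number and signal over background, not a depth, limit the precision. 

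A single fit with limma 3.58.1 in R 4.3.3 (data.table version 1.17.8) gave the 3 comparisons, with 2.03 prior degrees of freedom and no block, as in the methods. It was tested on simulated data. Plots used matplotlib 3.10.9, pandas 2.3.3 and Python 3.11.15. Replicate numbers did not pair the arrays, as 2 of 9 correlations of deviations between equal numbers were over 0.1 (range -0.28 to 0.23). The members, the lists and the tests were chosen with earlier results of these data known. All members are named, called genes of the lists could be named, and so are the 3 nearest profiles of each called member; EXPA7 and EXPA18 were named after their values were seen. Probe sequences were not used here, so cross-hybridization within the NCED family was not tested.

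Alternatives were other scalings, normexp correction (offset 50), other filters and probe choices, array weights, slide and replicate blocks, other call rules, the methods' t-test (Welch), the series table and leaving out each array in turn.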

Additional observations from a re-analysis of the deposited data

How the results depend on the processing

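Over the 3 comparisons, 551 fold changes of single pathway genes under the alternatives kept their direction and their side of the threshold, 13 gained a call, 3 lost it and 18 turned in sign. In the 9 fits without 1 array, 2 genes were called higher with NaCl, none with ABA, and 2 lower in ABA against NaCl every time. Without scaling, 1 gene was called higher with ABA (ABA3) and 3 in ABA against NaCl (ABA1, ABA2, ABA3); the log2 difference became -0.41 for ABA1 with NaCl, 0.45 for ABA2 with ABA and 0.36 for ABA4 in ABA against NaCl, while the median of all genes moved to -0.30, 0.48 and 0.78. The series table as given called 2 genes lower with NaCl (ABA2, ABA3) and 4 higher in ABA against NaCl (AAO3, ABA1, ABA2, ABA3), with log2 values of -0.93 for ABA1, -0.024 for ABA4 and -0.24 for AAO3 with NaCl and 0.45 for ABA4 in ABA against NaCl; here the median of all genes was -0.95 for NaCl, as its NaCl columns were scaled apart. With normexp 1 gene remained called higher with NaCl and 1 lower in ABA against NaCl (NCED3 in both), as NCED9 became 0.74 and -0.73, and ABA1 was -0.025 with NaCl. Requiring signal above background on all 9 arrays left 1 and 1 as well, since NCED9 was no longer tested. Without the fold threshold 1 gene was called higher in ABA against NaCl (ABA3). ABA4 was then also called, higher with NaCl and lower in ABA against NaCl. By that rule 39.3% of all genes tested were called with NaCl and 35.6% in ABA against NaCl. The methods' t-test after adjustment kept 1 gene with NaCl (NCED9).

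Values near 0 turned in sign under 75th percentile scaling (ABA1 with NaCl, -0.12), array weights (AAO3 in ABA against NaCl, -0.060) and the leaving out of marked spots before normalization, chosen after seeing the data (NCED9 with ABA, -0.0035). Without 1 array, ABA1 with NaCl ranged between -0.15 and 0.26, AAO3 in ABA against NaCl between -0.19 and 0.38, and NCED9 with ABA between -0.046 and 0.14. The cause of these changes was not tested beyond what the construction of an alternative states. The replicate block changed no call of the pathway genes, with 2 called higher with NaCl, 0 with ABA and 2 lower in ABA against NaCl, and NCED3 at an adjusted p of 0.00232; over all genes it gave 149 higher and 78 lower calls with ABA, against 215 and 133 without it.

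Over the 8 related lists, 15 genes were called higher and 6 lower with NaCl, 5 higher and 0 lower with ABA, and 6 higher and 6 lower in ABA against NaCl; these lists were run under the alternatives after their values were seen. Lower calls with NaCl became 11 without scaling, 12 without the fold threshold, 22 with the series table and 0 by the adjusted t-test, which left 7 higher. Higher calls with ABA became 13 without scaling, 9 with array weights, 10 with the slide as a random block, 10 at unadjusted p, 8 by the unadjusted and 0 by the adjusted t-test. In ABA against NaCl, higher calls became 23 without scaling, 12 without the fold threshold, 24 with the series table and 1 by the adjusted t-test, and lower calls 2, 2 with the series table and 1. Without 1 array the lower calls there numbered 3 to 7, the lowest without NaCl replicate 1 or 2. Over all genes, calls with ABA moved from 215 higher and 133 lower to 1325 and 60 without scaling, 462 and 330 with array weights, 707 and 559 with the slide block, 691 and 532 at unadjusted p, 437 and 375 by the unadjusted t-test, 0 and 0 by the adjusted one, and 76 and 30 without ABA replicate 1; with NaCl, the adjusted t-test gave 414 higher and 304 lower, against 2394 and 2851. Signal over background limits NCED2, NCED5, NCED6 and NCED9, whose lower levels were not detectable on these arrays.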
